A study of Mus musculus with 10 samples.

Results

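The matrix metalloproteinases (MMP), the ADAM and ADAMTS proteases and the tissue inhibitors of metalloproteinases (TIMP) were examined in endothelial cells of mouse lymph nodes (LN) and diaphragm. The genes were taken by symbol from the count table, as Mmp, Adam or Adamts followed by a number and as Timp1 to Timp4. This gave 78 of the 23284 symbols, made up of 23 MMP, 32 ADAM, 19 ADAMTS and 4 TIMP genes. RNA-Seq libraries came from 3 populations sorted from C57BL/6 (B6) mice aged 6 to 8 weeks, with no treatment or genetic change named in the labels. LN-LEC are lymphatic endothelial cells of LN (4 libraries), LN-BEC are blood endothelial cells of LN (3 libraries) and D-LEC are lymphatic endothelial cells of the diaphragm (3 libraries). Nodes of several sites (inguinal, axillary, brachial and cervical as well as mesenteric) were combined, and each library holds cells of many mice, so that the spread between libraries is that between pools and differences between LN sites are averaged. Cells were freed by disruption and enzyme digestion, depleted of CD45-bearing cells and sorted as CD31-positive cells with PDPN (LEC) or without it (BEC). The comparisons ask how LEC of LN differ from LEC of a peripheral tissue, and how LEC and BEC of the same organ differ.

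MMP, ADAM and ADAMTS proteins cut other proteins with the help of a zinc ion held by histidines in their active site. MMP remodel extracellular matrix and activate one another, ADAM sit in the membrane and release the outer parts of receptors and ligands, and ADAMTS are secreted and cut proteoglycans, procollagens and other matrix proteins. The TIMP bind the active site and block it, and in lymphatic and blood vessels the balance between proteases and inhibitors is known to bear on sprouting, on leukocyte passage and on the matrix around the vessel.

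The stretch that holds the zinc is the sequence feature by which the proteases of these families are recognised, and it is shown for 9 of the genes on which the results turn. Each is 33 coding bases, 5′ to 3′, from the mm9 gene models, and the capitals mark the codons of the 3 histidines, of the catalytic glutamate and of a residue that lies between the later histidines and is usually glycine.
Mmp9 (chr2:164776633-164776665, + strand): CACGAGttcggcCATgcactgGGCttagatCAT
Mmp14 (chr14:55056464-55056496, + strand): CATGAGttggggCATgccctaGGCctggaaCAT
Mmp15 (chr8:97892485-97892517, + strand): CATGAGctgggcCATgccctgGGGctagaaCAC
Adam10 (chr9:70602103-70609392, + strand, split by an intron): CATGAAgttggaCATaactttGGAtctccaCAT
Adam15 (chr3:89148702-89148734, - strand): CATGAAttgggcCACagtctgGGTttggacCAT
Adam33 (chr2:130880866-130880898, - strand): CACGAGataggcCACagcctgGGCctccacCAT
Adamts1 (chr16:85799436-85799790, - strand, split by an intron): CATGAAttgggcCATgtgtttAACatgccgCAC
Adamts5 (chr16:85878260-85888071, - strand, split by an intron): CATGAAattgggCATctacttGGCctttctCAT
Adamts9 (chr6:92855279-92858487, - strand, split by an intron): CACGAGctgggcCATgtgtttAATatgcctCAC

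All 23 MMP and all 19 ADAMTS genes coded for the glutamate and the 3 histidines in this spacing. The middle residue was glycine in every MMP, and asparagine in Adamts1, Adamts4, Adamts9, Adamts15 and Adamts20. Serine took that place in Adamts8, so that 13 ADAMTS genes carried glycine. Of the 32 ADAM genes, 19 had the stretch and 13 did not. These 13 were Adam2, Adam3, Adam4, Adam5, Adam6a, Adam6b, Adam7, Adam11, Adam18, Adam22, Adam23, Adam29 and Adam32, and ADAM of this kind are known as adhesion proteins rather than proteases.

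Libraries held 22429940 to 48906070 counted fragments. A level is a count divided by the DESeq2 size factor of its library, called a normalized count, and levels of different genes are compared only per kb of exon. Testing took in the genes with a mean of 1 normalized count or more in any of the populations, which were 15361 genes and 63 of the 78. Fold changes come from edgeR's quasi-likelihood fit to all 10 libraries, each SE is that of the log2 fold change, adjusted p are by the Benjamini-Hochberg method over all genes tested, and higher or lower is called where that value is under 0.05. Each population held the markers of its label. The summed LEC list (Lyve1, Pdpn, Prox1, Reln, Flt4) was 94668 to 119450 normalized counts in LN-LEC, 387239 to 415551 in D-LEC and 2891 to 7955 in LN-BEC. LN-BEC replicate 3 was the highest of the LN-BEC in that list, at 7955 against 4007 and 2891. Other lists also differed. The mural cell list, most of it Rgs5 in LN, was 3140 to 6947 in the LN populations and 183 to 339 in D-LEC. Skeletal muscle genes were 888 to 1225 in D-LEC and at most 101 in LN. Mesothelial genes were 562 to 1751 in D-LEC and at most 131 in LN. The BEC list was 85991 to 90435 in LN-BEC, 5623 to 8005 in D-LEC and 1309 to 2240 in LN-LEC. Its D-LEC sum was mostly Emcn, with a mean of 6346 against 648 in LN-LEC. Flt1 and Nrp1 were called lower in D-LEC (61.0 and 106) than LN-LEC (197 and 674), and Notch4 was called higher (198 against 93.5). Vwf had means of 164 in D-LEC and 127 in LN-LEC. The macrophage list was 819 to 1118 in D-LEC, 457 to 643 in LN-BEC and 335 to 429.7 in LN-LEC. The pan endothelial pair of genes summed to 55656 or more in every library and was highest in LN-BEC, at up to 156212. The leukocyte gene Ptprc was highest in LN-BEC, as given below beside Adam28. Their part in the results was not tested. In sorted pools, fewer cells of a type and less RNA per cell cannot be told apart.

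Of the 63 genes tested, 21 (33.3%) were higher in LN-LEC than D-LEC, against 24.0% of all genes, and 16 (25.4%) were higher in D-LEC, against 21.7%. Between the LN populations, 15 (23.8%) were higher in LN-LEC, against 19.8% of all genes, and 11 (17.5%) in LN-BEC, against 18.4%. Against LN-BEC, D-LEC were higher in 13 (20.6%) and lower in 21 (33.3%), where the shares of all genes were 22.4% and 25.6%. The comparisons share libraries, so they are not independent of one another. The median log2 fold change of the 63 genes was 0.60 for LN-LEC minus D-LEC, 0.11 for LN-LEC minus LN-BEC and -0.19 for D-LEC minus LN-BEC, and that of all genes was 0.03, -0.01 and -0.05. Libraries of the compared populations did not overlap for any gene called in the comparisons of LN-LEC, and they overlapped for 1 gene, Adamts20, between D-LEC and LN-BEC. The share without overlap was not taken over all called genes, so this marks nothing particular to these families. By family, the MMP leaned to LN-LEC over LN-BEC (6 higher, 1 lower, 12 not called) and the ADAMTS to LN-BEC over LN-LEC (6 higher, 2 lower, 11 not called). Values per library are given below for 27 genes, which are the 4 TIMP and every protease that was called with at least a 2-fold change and had a mean of at least 100 normalized counts somewhere.

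**Figure D1:**
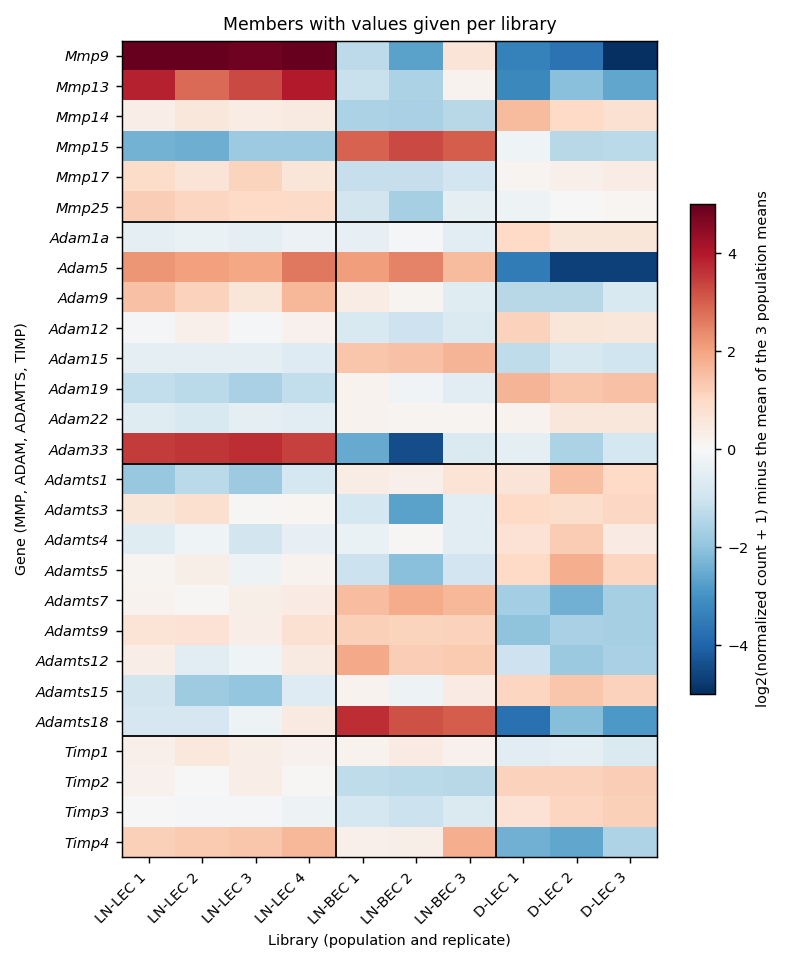
Level of the 27 genes (rows, grouped as MMP, ADAM, ADAMTS and TIMP) in the 10 libraries (columns), as log2(normalized count + 1) minus the mean of the 3 population means, with a colour scale that is capped at its ends. Mmp9, Mmp13 and Adam33 are red in all 4 LN-LEC columns, Mmp15 and Adamts18 in the 3 LN-BEC columns, and Adam5 is blue in the 3 D-LEC columns.

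**Figure D2:**
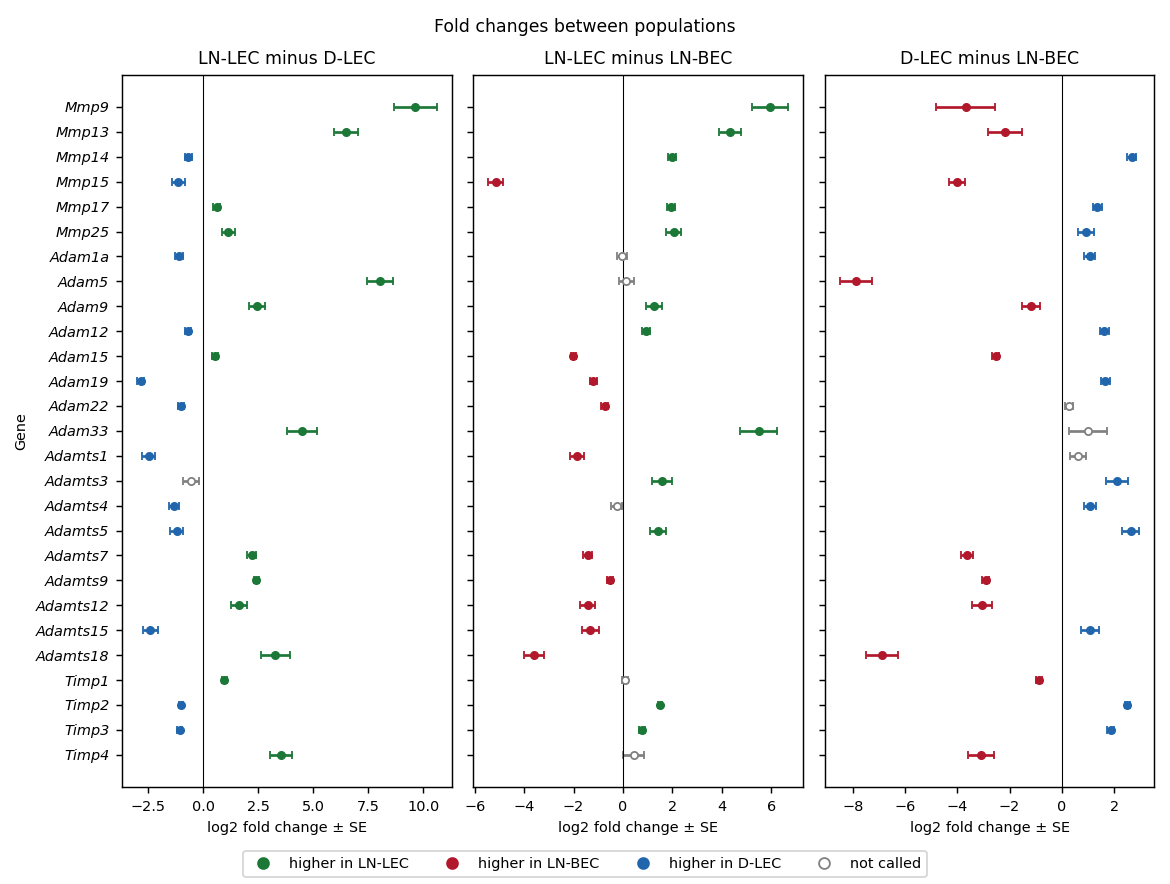
Log2 fold change (horizontal axis) with its SE for the same 27 genes in each comparison, coloured by the population in which the gene was called higher and open grey where it was not called. Mmp9 lies farthest to the right in the comparisons of LN-LEC, and the values of Adam5 and Adamts18 against D-LEC rest on at most 3 counts in all D-LEC libraries together.

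Per kb of exon, TIMP transcripts outweighed all proteases together in the LEC libraries and in 1 of the 3 LN-BEC libraries. They summed to 25459.9 ± 1146 normalized counts (SD, n = 4) in LN-LEC, 14129 ± 2099 (n = 3) for LN-BEC and 48885 ± 5967 (n = 3) for D-LEC. The 3 ranges were 23942 to 26384, 12296 to 16418 and 42398 to 54139, with no overlap. Timp3, whose protein binds to the matrix and inhibits ADAM and ADAMTS as well as MMP, made up 65.6% of the sum for LN-LEC, 69.4% for LN-BEC and 73.5% for D-LEC. The protease sum took in all MMP, ADAM and ADAMTS genes, also the 13 ADAM genes without the active site. It came to 0.606 to 0.770 of the TIMP sum in LN-LEC, 0.851 to 1.10 for LN-BEC and 0.260 to 0.380 for D-LEC. This ratio is one of transcripts per length and says nothing of protein.

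Timp3 had 82381, 79879, 78874 and 71414 for LN-LEC, 46326, 39834 and 51617 for LN-BEC and 138708, 174950.00 and 190859 for D-LEC. All D-LEC libraries were above all LN-LEC, and those above all LN-BEC. D-LEC exceeded LN-LEC by 2.12-fold (SE 0.12, adjusted p = 6.51e-06) and LN-LEC exceeded LN-BEC by 1.72-fold (SE 0.13, adjusted p = 0.000185). Timp2, which both inhibits MMP and helps MMP14 to activate pro-MMP2, kept the same order, with 23262, 19856, 24766 and 20547 for LN-LEC, 8243, 7769 and 7674 for LN-BEC and 44397, 44338 and 46296 for D-LEC. D-LEC were higher than LN-LEC by 2.01-fold (SE 0.09, adjusted p = 9.21e-07), and LN-LEC than LN-BEC by 2.83-fold (SE 0.10, adjusted p = 3.33e-08). The other two went the other way. Timp1, the inhibitor most strongly induced in inflammation, had 577, 696, 600.4 and 556 for LN-LEC, 551, 636 and 555 for LN-BEC and 327, 339.7 and 292 for D-LEC. Both LN populations stood above D-LEC, by 1.93-fold (SE 0.11, adjusted p = 1.11e-05) for LN-LEC and 1.82-fold (SE 0.12, adjusted p = 3.6e-05) for LN-BEC, and they were not called apart, with a log2 fold change of 0.08 (SE 0.11, adjusted p = 0.61). Timp4 had 2428, 2658, 2754 and 3382 for LN-LEC, 1249, 1313 and 3752 for LN-BEC and 199, 172 and 362 for D-LEC. LN-LEC were higher than D-LEC by 11.5-fold (SE 0.50, adjusted p = 0.00062) and LN-BEC than D-LEC by 8.54-fold (SE 0.51, adjusted p = 0.00134). LN-BEC replicate 3 held more Timp4 than any LN-LEC library, whereas the other LN-BEC libraries held less than every LN-LEC library. LN-LEC minus LN-BEC was 0.43 (SE 0.43, adjusted p = 0.481), and without that library 1.14 (adjusted p = 0.00717). In that library the LEC list stood at 7.43% of its LN-LEC mean and Timp4 at 134% of its LN-LEC mean, and in the other LN-BEC libraries Timp4 stood at 44.5% and 46.8%. What part the library plays in this result beyond these values was not tested. Timp1, Timp3 and Timp4 lie inside the synapsin genes Syn1, Syn3 and Syn2 on the opposite strand, with no shared exon bases in mm9. Mean levels of these hosts, given for LN-LEC, then LN-BEC, then D-LEC, were 102, 136 and 118 normalized counts for Syn3, 696, 654 and 781 for Syn2 and 58.9, 6.05 and 3.29 for Syn1. Syn3 was not called in any comparison, and Syn2, unlike Timp4, was slightly higher in D-LEC than LN-BEC (1.19-fold, adjusted p = 0.0483). Syn1 was higher in LN-LEC than D-LEC (18.6-fold, adjusted p = 2.28e-05), as Timp1 was, and also than LN-BEC (9.60-fold, adjusted p = 0.000102), where Timp1 was not called, and its part in the Timp1 level was not tested.

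**Figure D3:**
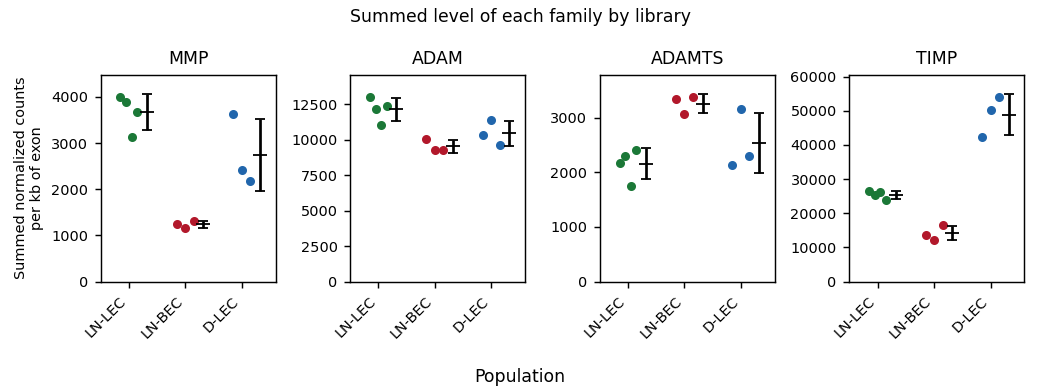
Summed normalized counts per kb of exon (vertical axis, from 0) of the MMP, ADAM, ADAMTS and TIMP genes, 1 point a library by population (horizontal axis), with the mean and SD in black beside the points. The TIMP sum is lowest in LN-BEC and highest in D-LEC, and the MMP sum of LN-BEC, 1167 to 1308, lies below that of every other library.

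Among secreted MMP, LN-LEC stood apart by Mmp9, the gelatinase that cuts denatured collagen and basement membrane collagen. It had 6502, 5823, 3799 and 5405 for LN-LEC, 50.8, 19.03 and 203 for LN-BEC and 11.4, 9.02 and 1.65 for D-LEC. The lowest LN-LEC library, at 3799, stood far above the highest of the others, at 203. LN-LEC exceeded D-LEC by 796-fold (SE 0.97, adjusted p = 9.53e-05) and LN-BEC by 61.7-fold (SE 0.73, adjusted p = 0.000338). Mmp9 made up 46.6% of the MMP sum per kb in LN-LEC. The LN-BEC level was uneven, and LN-BEC replicate 3 was again the highest. That library was at 3.77% of the LN-LEC mean for Mmp9 and at 7.43% for the LEC list, and the other LN-BEC libraries were at 0.943% and 0.353% for Mmp9 and at 3.74% and 2.70% for the list. The call of LN-BEC over D-LEC (12.9-fold (adjusted p = 0.029)) was lost without any single D-LEC library. Neutrophils are a known source of Mmp9: the neutrophil list (Elane, Mpo, S100a8 and others) summed to 14.7 to 272 normalized counts in LN-LEC, 84.9 to 1079 for LN-BEC and 0 to 6.31 for D-LEC, and LN-LEC replicate 3, with 14.7, had 3799 of Mmp9. The part of neutrophil RNA in Mmp9 was not tested.

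Mmp13, a collagenase that opens fibrillar collagen, followed the same order with 303, 149.8, 209 and 329 for LN-LEC, 8.75, 6.05 and 23.1 for LN-BEC and 1.26, 4.01 and 2.48 for D-LEC. The LN-LEC range began far above the highest of the others. LN-LEC were higher than D-LEC by 90.7-fold (SE 0.55, adjusted p = 5.54e-07) and than LN-BEC by 20.2-fold (SE 0.45, adjusted p = 4.22e-06). LN-BEC were also called higher than D-LEC (4.49-fold (adjusted p = 0.0148)), but without LN-BEC replicate 3 the log2 fold change of D-LEC minus LN-BEC was -1.45 (adjusted p = 0.085).

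Mmp2, the other gelatinase, was not called in any comparison. It had 176, 92.7, 67.8 and 124 for LN-LEC, 284, 74.4 and 208 for LN-BEC and 376, 126 and 193 for D-LEC, and the ranges of all 3 populations overlapped. LN-LEC minus D-LEC was -0.98 (SE 0.51, adjusted p = 0.152). Within each population its libraries ranked as the fibroblast list did (Pdgfra, Col1a1, Col1a2, Dcn, Lum), which summed to 7237, 4837, 3994 and 6661 in the LN-LEC, 7575, 2037 and 6589.7 in the LN-BEC and 7432, 2474 and 4639 in the D-LEC. The same ranking in all 3 populations was counted for 38 of the 15361 genes tested (0.247%) and for 2 of the 63 here, Mmp2 and Adamts16. Adamts16 was tied at 0 in D-LEC replicates 2 and 3, so ties were let through and the 38 may include others. The check was made after the values had been seen. Whether fibroblast RNA accounts for Mmp2 was not tested.

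**Figure D4:**
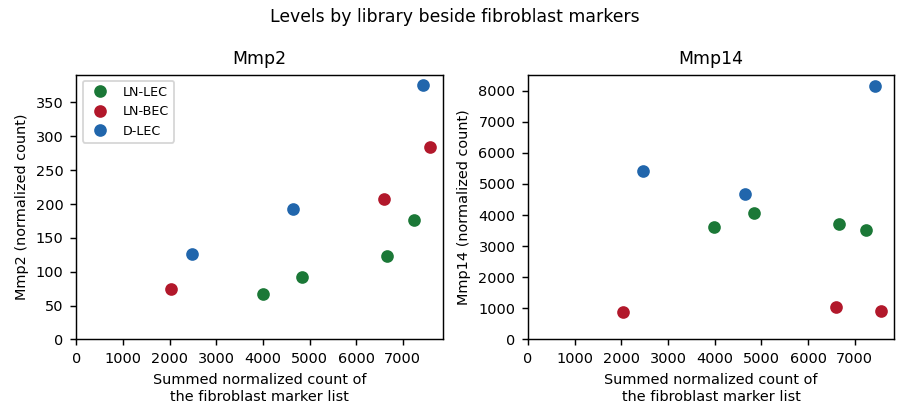
Normalized count of Mmp2 (left) and Mmp14 (right) against the summed normalized count of the fibroblast list (horizontal axis), 1 point a library, coloured by population. Mmp2 is ordered as the list within each population, from 67.8 to 176 in LN-LEC, while Mmp14 keeps to 887 to 1050 in LN-BEC over a list sum of 2037 to 7575.

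Mmp13 is the first gene of a cluster of 10 Mmp genes on mouse chromosome 9 (mm9 chr9:7272514-7699416) with no other gene in between. In order from Mmp13 these are Mmp12, Mmp1b, Mmp3, Mmp1a, Mmp10, Mmp8, Mmp27, Mmp20 and Mmp7. Of the 10, 7 were tested, and 4 were called higher in LN-LEC than D-LEC and in LN-BEC than D-LEC: Mmp13, Mmp3, Mmp8 and Mmp27. The shares of all genes were 24.0% and 25.6%. With only D-LEC and LN-BEC fitted, neither Mmp27 (adjusted p = 0.0558) nor Mmp13 (adjusted p = 0.0527) was called between them. The call of Mmp13 between them was also lost without D-LEC replicate 1 or 3. Mmp27 and Mmp13 were also higher in LN-LEC than LN-BEC. Mmp27 had 41.5, 46.97, 39.6 and 30.8 for LN-LEC, 10.5, 4.32 and 5.25 for LN-BEC and 0, 2.004 and 0 for D-LEC, without overlap between any 2 populations. Its LN-LEC mean was 59.6 times the D-LEC level, which rests on 2 counts (counting interval 16.5 to 492, adjusted p of the edgeR test = 3.38e-05), and LN-LEC exceeded LN-BEC by 5.86-fold (SE 0.55, adjusted p = 0.00201). Mmp8, the collagenase of neutrophils, had 18.1, 54.6, 29.4 and 23.3 in LN-LEC, 26.3, 11.2 and 12.6 in LN-BEC and no count in the 3 D-LEC libraries. Against a floor of 3 counts over all D-LEC libraries, LN-LEC were at least 31.4-fold higher and LN-BEC at least 16.7-fold higher. The neutrophil list was 87.6 in LN-LEC replicate 2, the library with the most Mmp8, and 272 in LN-LEC replicate 4, the highest of the LN-LEC. It was 84.9 to 1079 in LN-BEC and 0 to 6.31 in D-LEC. The part of neutrophil RNA in Mmp8 was not tested. Mmp3, a stromelysin with broad matrix substrates, had 49.3, 19.04, 16.96 and 52.8 for LN-LEC, 52.5, 5.19 and 65.1 for LN-BEC and 1.26, 4.01 and 3.31 for D-LEC. It was higher in LN-LEC than D-LEC by 11.5-fold (SE 0.88, adjusted p = 0.00555), and the LN populations overlapped widely. Its lowest LN-BEC value, 5.19 in replicate 2, fell in the library with the lowest fibroblast list of the LN-BEC, and fibroblast RNA as its source was not tested. The remaining members of the cluster were at or near no counts: Mmp1a and Mmp1b had none, and Mmp7, Mmp10, Mmp12 and Mmp20 stayed at 5.25 normalized counts or below.

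**Figure D5:**
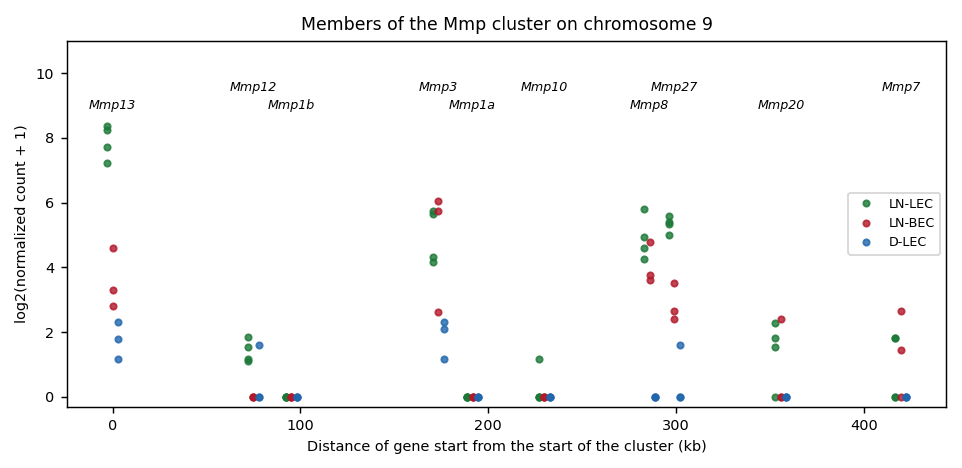
Level of the 10 genes of the chromosome 9 cluster as log2(normalized count + 1), 1 point a library by population, against the distance of each gene's start from the start of the cluster (kb). Mmp13, Mmp3, Mmp8 and Mmp27 are the genes with LN points above 3 on this axis, and no D-LEC point of the cluster reaches 3.

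As 4 neighbours in this cluster were called higher in both LN populations than D-LEC, promoters were read from RefSeq's GRCm38.p6 table, which holds 250 bases before to 50 bases after each start. Of the 78 genes, 48 had an entry. The AP-1 motif TGANTCA and the TATA motif TATAAA, searched on both strands, were both present for 8 of the 10 genes of the cluster and for 1 of the other 38 members (Adam29), against 1.54% of all 32851 promoters. Alone, AP-1 letters were in 7.81% and TATA letters in 13.6% of all promoters. The GC box GGGCGG was in none of the 10 genes of the cluster, in 23 of the other 38 and in 35.7% of all promoters. Mmp13 and Mmp3 are shown with the AP-1 and TATA letters in capitals, and Mmp14, which lies outside the cluster, with its 2 adjacent GC boxes in capitals.
Mmp13 (chr9:7272264-7272563, + strand): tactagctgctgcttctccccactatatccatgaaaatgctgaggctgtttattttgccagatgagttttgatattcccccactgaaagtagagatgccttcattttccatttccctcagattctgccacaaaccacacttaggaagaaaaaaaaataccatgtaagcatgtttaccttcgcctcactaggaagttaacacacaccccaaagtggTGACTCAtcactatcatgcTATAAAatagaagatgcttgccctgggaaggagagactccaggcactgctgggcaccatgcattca
Mmp3 (chr9:7445572-7445871, + strand): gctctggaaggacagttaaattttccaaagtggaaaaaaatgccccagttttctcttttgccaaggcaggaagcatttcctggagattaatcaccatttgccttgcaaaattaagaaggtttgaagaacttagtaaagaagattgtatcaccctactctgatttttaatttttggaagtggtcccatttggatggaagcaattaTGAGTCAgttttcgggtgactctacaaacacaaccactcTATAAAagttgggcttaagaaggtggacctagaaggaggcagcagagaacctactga
Mmp14 (chr14:54431348-54431647, + strand): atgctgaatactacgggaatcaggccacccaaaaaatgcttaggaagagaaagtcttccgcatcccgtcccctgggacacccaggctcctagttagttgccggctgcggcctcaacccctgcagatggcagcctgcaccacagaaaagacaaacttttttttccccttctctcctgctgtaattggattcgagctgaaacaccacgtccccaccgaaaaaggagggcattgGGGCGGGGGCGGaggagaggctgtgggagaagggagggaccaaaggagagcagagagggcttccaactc
Within the cluster, Mmp13 and Mmp3 held both AP-1 and TATA letters, Mmp8 held TATA only and Mmp27 held neither. These 4 genes were called higher in both LN populations than D-LEC. Mmp1a and Mmp1b held both and had no counts. Mmp7, Mmp10, Mmp12 and Mmp20 also held both and stayed at 5.25 normalized counts or below. Whether the motifs bear on expression was not tested. These matches describe the letters in this window and not the binding of a factor.

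Membrane-type MMP are held at the cell surface, where MMP14 also activates other MMP. Of the 5 tested, 3 were called higher in LN-LEC than LN-BEC and 1 lower, against 19.8% and 18.4% of all genes. Mmp14 had 3502, 4053, 3599 and 3725 for LN-LEC, 917, 887 and 1050.3 for LN-BEC and 8152, 5415 and 4663 for D-LEC. Its LN-BEC values were below all others and its D-LEC values above all others. LN-LEC exceeded LN-BEC by 3.95-fold (SE 0.16, adjusted p = 7.53e-07), and D-LEC exceeded LN-LEC by 1.61-fold (SE 0.15, adjusted p = 0.00255). Mmp14 made up 85.3% of the MMP sum per kb in D-LEC and 38.9% in LN-LEC. D-LEC replicate 1 was the highest of the D-LEC, at 8152, and was also highest in the fibroblast list. In each LN population the highest library in the list was not the highest in Mmp14, and LN-BEC replicate 2 was the lowest LN-BEC in both. The part of fibroblast RNA in Mmp14 was not tested. Mmp15, another MMP with a transmembrane stretch, ran the opposite way between the LN populations with 49.3, 46.97, 73.5 and 72.3 for LN-LEC, 2006, 2551 and 2107 for LN-BEC and 225, 98.2 and 101 for D-LEC. The LN-BEC values stood far above the rest, 35.5-fold (SE 0.29, adjusted p = 1.87e-07) over LN-LEC and 16.1-fold (SE 0.30, adjusted p = 1.38e-06) over D-LEC. In LN-BEC it took 41.9% of the MMP sum per kb, more than Mmp14 (29.6%). The active site stretches of Mmp14 and Mmp15 are printed above, and both carry glycine in the middle.

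Mmp17 and Mmp25 are anchored by a lipid (GPI) instead of a transmembrane stretch, and both were highest in LN-LEC. Mmp17 had 390.2, 321, 449 and 315 for LN-LEC, 92.8, 90.8 and 106 for LN-BEC and 227, 244 and 267 for D-LEC, in 3 separate ranges. LN-LEC were above LN-BEC by 3.86-fold (SE 0.16, adjusted p = 4.4e-07) and above D-LEC by 1.52-fold (SE 0.15, adjusted p = 0.00576). Mmp25, known from leukocytes, had 123, 110.4, 103 and 99.96 for LN-LEC, 27.1, 15.6 and 36.8 for LN-BEC and 42.9, 52.1 and 55.4 for D-LEC. LN-LEC exceeded LN-BEC by 4.17-fold (SE 0.30, adjusted p = 7.99e-05) and D-LEC by 2.195-fold (SE 0.28, adjusted p = 0.005). D-LEC were called above LN-BEC (1.901-fold (adjusted p = 0.0256)), a call lost without any of 4 of the libraries. Mmp16 was not called in any comparison, with means of 19.4, 22.5 and 19.8.

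Of the other MMP, Mmp11 (111 in LN-LEC, 187 in D-LEC) and Mmp19 (102 and 151) were called higher in D-LEC than LN-LEC, by 1.66-fold (adjusted p = 0.0132) and 1.46-fold (adjusted p = 0.041). The call of Mmp11 was lost without D-LEC replicate 1 (adjusted p = 0.059), and that of Mmp19 without LN-LEC replicate 2 or 4 or any D-LEC library (adjusted p of 0.0574 to 0.131). For Mmp19, 22.9% of the exon bases are shared with Tmem198b on the opposite strand, and counting ignored strand, so its level is uncertain. Mmp12, Mmp20, Mmp21, Mmp23 and Mmp28 were not called in any comparison.

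ADAM transcripts were dominated by Adam10, the main protease that releases Notch ligands, Notch and cadherins from the surface. Per kb it was the highest of all proteases in every population, at 6167 ± 461 in LN-LEC, 4711 ± 408 for LN-BEC and 7932 ± 965 for D-LEC. D-LEC exceeded LN-BEC by 1.68-fold (SE 0.11, adjusted p = 9.06e-05) and LN-LEC by 1.27-fold (SE 0.10, adjusted p = 0.0159), the latter call lost without D-LEC replicate 2 (log2 fold change of LN-LEC minus D-LEC -0.25, adjusted p = 0.0863). Adam17, which releases TNF and growth factors, differed little, with means of 6089.7 ± 178 (SD, n = 4), 5469 ± 149 (n = 3) and 4360.1 ± 105 (n = 3). LN-LEC were above D-LEC by 1.42-fold (SE 0.07, adjusted p = 4.68e-05), and LN-LEC minus LN-BEC was 0.17 (SE 0.07, adjusted p = 0.0694). Exons of Adam17 share 2.25% of their bases with Iah1 on the other strand.

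Adam33, an ADAM known from airway smooth muscle and mesenchyme, was a mark of LN-LEC with 4070.2, 4288, 4703 and 3831 for LN-LEC, 62.2, 15.6 and 216 for LN-BEC and 264, 118 and 197 for D-LEC. The highest value outside LN-LEC was 264, in D-LEC replicate 1. LN-LEC exceeded LN-BEC by 44.8-fold (SE 0.73, adjusted p = 0.000555) and D-LEC by 22.4-fold (SE 0.69, adjusted p = 0.00105). The mural cell list, which would carry smooth muscle RNA, was 3140 to 5181 in LN-LEC, 5447 to 6947 in LN-BEC and 183 to 339 in D-LEC. The mean of Adam33 was lowest in LN-BEC. Most of the list sum in LN was Rgs5, with means of 3856 in LN-LEC and 4393 in LN-BEC. Rgs5 and Des were not called between the LN populations. Acta2, Myh11, Pdgfrb and Cspg4 were called lower in LN-LEC (213, 124, 91.3 and 2.99) than LN-BEC (872, 479, 339 and 50.9). The part of smooth muscle RNA in Adam33 was not tested. LN-BEC replicate 3 was the highest of the LN-BEC, as for Mmp9, at 5.12% of the LN-LEC mean. D-LEC minus LN-BEC was 1.001 (SE 0.71, adjusted p = 0.287), and without that library 2.29 (adjusted p = 0.00656).

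Adam9, a sheddase with wide expression, had 10814, 8743, 5969 and 12664 for LN-LEC, 5117, 4366 and 2614 for LN-BEC and 1493, 1501 and 2351 for D-LEC. All LN-LEC libraries were above all LN-BEC libraries, and these above all D-LEC libraries. LN-LEC exceeded D-LEC by 5.43-fold (SE 0.34, adjusted p = 0.000408) and LN-BEC by 2.39-fold (SE 0.33, adjusted p = 0.0145). The call of LN-BEC over D-LEC (2.27-fold (adjusted p = 0.0201)) was lost without any of 4 libraries, with an adjusted p of up to 0.0787.

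Adam15, known from vascular endothelium, was called higher in LN-BEC than in either other population. It had 1686, 1714, 1701 and 1502 for LN-LEC, 6058, 6429 and 7565 for LN-BEC and 956, 1337 and 1179 for D-LEC. LN-BEC stood well apart, 4.01-fold (SE 0.12, adjusted p = 1.17e-08) above LN-LEC and 5.79-fold (SE 0.13, adjusted p = 2.31e-09) above D-LEC. Adam15 took 23.4% of the ADAM sum per kb in LN-BEC, where Adam10 took 49.4%. LN-LEC were also above D-LEC, by 1.44-fold (SE 0.12, adjusted p = 0.00237). Adam28, an ADAM of lymphocytes, was low and highest in LN-BEC as well, with 12.3, 9.51 and 15.8 there, a single LN-LEC library above 0 (4.40) and no count in D-LEC. LN-BEC were at least 12.5-fold higher than a floor of 3 counts over the D-LEC libraries, and their call over LN-LEC was lost without any of 5 single libraries (adjusted p of 0.0648 to 0.0705) and with DESeq2. Ptprc, which codes for CD45 of leukocytes, had means of 285 ± 66.3 (SD, n = 3) in LN-BEC, 40.3 ± 7.60 (n = 4) in LN-LEC and 14.9 ± 6.22 (n = 3) in D-LEC, and the part of leukocyte RNA in Adam28 was not tested.

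Adam12 and Adam19, the meltrins, were highest in D-LEC. Adam19 had 276, 253, 206 and 273 for LN-LEC, 727, 573 and 445 for LN-BEC and 2110.2, 1680.2 and 1795 for D-LEC. The 3 populations did not overlap, and D-LEC exceeded LN-LEC by 7.26-fold (SE 0.16, adjusted p = 6e-09) and LN-BEC by 3.18-fold (SE 0.16, adjusted p = 1.69e-06). Adam12 had 759.6, 984, 759.9 and 944 for LN-LEC, 478, 397 and 499.95 for LN-BEC and 1795, 1251 and 1211 for D-LEC. D-LEC exceeded LN-LEC by 1.62-fold (SE 0.15, adjusted p = 0.00155), and LN-LEC exceeded LN-BEC by 1.904-fold (SE 0.15, adjusted p = 0.000246), so that these genes placed the LN populations in opposite order. Meltrins are known from muscle, and skeletal muscle genes (Acta1, Ckm, Myh4, Tnnt3, Mylpf) were 888 in D-LEC replicate 1, where Adam12 and Adam19 were highest, and 1153 and 1225 in the other D-LEC libraries. The part of muscle RNA in these genes was not tested. Adam1a had 89.4, 96.5, 89.3 and 99.96 for LN-LEC, 91.04, 116 and 85.1 for LN-BEC and 243, 185 and 187 for D-LEC, higher in D-LEC than LN-LEC by 2.15-fold (SE 0.18, adjusted p = 0.000233). Of its 100-base windows, 32.8% also occur in Adam1b, so its count can be low. Adam8, an ADAM of leukocytes, was called higher in LN-LEC than LN-BEC, by 1.62-fold (adjusted p = 0.0444), a call lost without any of 8 single libraries (adjusted p of 0.0506 to 0.121), with no filter and with the LN populations alone.

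Of the 13 ADAM genes without an active site, 8 were tested. Against D-LEC, LN-LEC were higher in 2 (24.0% of all genes) and lower in 1 (21.7%). Between the LN populations, 1 was called, higher in LN-BEC (18.4%), and 3 were higher in LN-BEC than D-LEC (25.6%). Adam5, known from testis, had 115, 104, 94.98 and 155 for LN-LEC, 108, 141 and 75.6 for LN-BEC and 1.26, 0 and 0 for D-LEC. It was present in all 7 LN libraries and had 1 count in all D-LEC libraries together. The LN-LEC mean was 352 times that level (counting interval 63.3 to 13920.1, adjusted p of the edgeR test = 1.02e-07), and LN-LEC minus LN-BEC was 0.14 (SE 0.30, adjusted p = 0.758). On chromosome 8 (mm9 chr8:25712718-26127394), Adam5 lies in a run of Adam18, Adam3, Adam5, Adam32 and Adam9. Its neighbours Adam32 and Adam9 were likewise higher in LN-LEC than D-LEC, Adam32 by 6.102-fold (SE 0.44, adjusted p = 0.000261) with means of 35.7 ± 4.46 (SD, n = 4), 27.2 ± 7.56 (n = 3) and 5.63 ± 3.0003 (n = 3). At the other end of the run, Adam18 had no counts and Adam3 was not called, with its highest value in a D-LEC library. Adam22, a receptor for LGI proteins in neurons, had 187, 165, 207 and 189 for LN-LEC, 321, 313 and 313 for LN-BEC and 315, 419 and 417 for D-LEC. LN-LEC were below all other libraries, 2.03-fold (SE 0.14, adjusted p = 3.37e-05) under D-LEC and 1.67-fold (SE 0.14, adjusted p = 0.00062) under LN-BEC. Its relative Adam23 was called between LN-BEC (mean 27.2) and D-LEC (mean 2.61), by 9.82-fold (adjusted p = 0.0027).

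Some ADAMTS cut the large proteoglycans versican and aggrecan, and the order of the populations differed among their genes. Adamts9, the highest ADAMTS per kb in both LN populations, had 8446, 8498, 6509.6 and 8715 for LN-LEC, 11971, 11141 and 11619.7 for LN-BEC and 1271, 1690.3 and 1631 for D-LEC. All D-LEC libraries were far below. LN-LEC exceeded D-LEC by 5.32-fold (SE 0.13, adjusted p = 4e-09) and LN-BEC exceeded LN-LEC by 1.42-fold (SE 0.12, adjusted p = 0.00341). It made up 61.7% of the ADAMTS sum per kb in LN-LEC and 58.8% in LN-BEC, whereas in D-LEC Adamts1 led with 45.6%. Adamts1 had 704, 1038, 759.9 and 1453 for LN-LEC, 3445, 3128 and 4309 for LN-BEC and 4189, 7449 and 5279 for D-LEC. LN-LEC were below every other library, 5.61-fold (SE 0.29, adjusted p = 0.000103) under D-LEC and 3.61-fold (SE 0.29, adjusted p = 0.000726) under LN-BEC. D-LEC overlapped with LN-BEC (D-LEC minus LN-BEC 0.63 (SE 0.30, adjusted p = 0.119)). D-LEC were called higher with DESeq2's Wald test (adjusted p = 0.03) and with edgeR on those populations alone (0.0424). The same held without LN-BEC replicate 3 and LN-LEC replicate 4 (edgeR adjusted p = 0.0334). Adamts1 and Adamts9 are alike in the asparagine of their active sites, which 5 ADAMTS genes carry. Of these 5, 3 were called higher in D-LEC than LN-LEC (Adamts1, Adamts4, Adamts15) and 1 lower (Adamts9), against 21.7% and 24.0% of all genes.

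Adamts5, the main aggrecanase of cartilage, lies beside Adamts1 on chromosome 16 (starts 64329 bases apart) and had 1759, 1985, 1359 and 1809 for LN-LEC, 759, 378 and 831 for LN-BEC and 3234, 5605 and 3380.2 for D-LEC. It was also highest in D-LEC, 2.33-fold (SE 0.29, adjusted p = 0.00791) over LN-LEC, but LN-BEC were lowest, 2.67-fold (SE 0.31, adjusted p = 0.00571) under LN-LEC. These neighbours thus differed in their order between the LN populations. Adamts4 had 391, 523, 322 and 450.1 for LN-LEC, 483, 627 and 417 for LN-BEC and 996, 1439.8 and 809.7 for D-LEC. D-LEC exceeded LN-LEC by 2.53-fold (SE 0.22, adjusted p = 0.000437) and LN-BEC by 2.12-fold (SE 0.24, adjusted p = 0.00298). Adamts15 had 25.9, 13.96, 12.4 and 32.1 for LN-LEC, 56.02, 42.4 and 66.2 for LN-BEC and 107, 133 and 112 for D-LEC, in 3 ranges that did not overlap. D-LEC exceeded LN-LEC by 5.34-fold (SE 0.33, adjusted p = 4.43e-05), LN-BEC exceeded LN-LEC by 2.503-fold (SE 0.34, adjusted p = 0.00636), and D-LEC exceeded LN-BEC by 2.13-fold (SE 0.34, adjusted p = 0.0178), a call lost without D-LEC replicate 2 or LN-BEC replicate 2. Its neighbour on chromosome 9, Adamts8, was low and called the other way, LN-LEC (11.9) over D-LEC (2.92) with an adjusted p of 0.0368, a call lost without LN-LEC replicate 2 or 4 or D-LEC replicate 1 or 3 (adjusted p of 0.0505 to 0.16). Adamts20 was called higher in LN-BEC (18.7) than D-LEC (3.204), with an adjusted p of 0.0249 and overlapping libraries, a call lost without D-LEC replicate 2 or 3 or LN-BEC replicate 1 or 3 (adjusted p of 0.0633 to 0.0696) and with those populations alone (0.0576). Of the 7 proteoglycanases tested, 4 were called higher in D-LEC than LN-LEC (Adamts1, Adamts4, Adamts5, Adamts15) and 2 lower (Adamts8, Adamts9), where the shares of all genes were 21.7% and 24.0%. Mesothelial genes, 562 to 1751 in D-LEC, were lowest in D-LEC replicate 2, where Adamts1, Adamts4 and Adamts5 were highest. That library was also lowest of the D-LEC in the fibroblast list (2474) and highest in the macrophage list (1118). The part of RNA from other cells in these genes was not tested.

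Procollagen N-proteinases trim procollagens, and ADAMTS3 also processes pro-VEGF-C, the growth factor of LEC, together with CCBE1. Adamts3 had 99.8, 114, 68.97 and 71.04 for LN-LEC, 35.9, 9.51 and 45.2 for LN-BEC and 131, 122 and 137 for D-LEC. LN-BEC values lay below those of both LEC populations: LN-LEC exceeded LN-BEC by 2.97-fold (SE 0.40, adjusted p = 0.0063) and D-LEC exceeded LN-BEC by 4.32-fold (SE 0.42, adjusted p = 0.000878). LN-LEC minus D-LEC was -0.54 (SE 0.36, adjusted p = 0.244). Vegfc itself ran against this, with means of 152 ± 19.1 in LN-LEC (SD, n = 4), 1056 ± 262 for LN-BEC (n = 3) and 84.7 ± 27.98 for D-LEC (n = 3). LN-BEC exceeded LN-LEC by 6.86-fold (SE 0.21, adjusted p = 2.89e-07). Ccbe1 was not called, at means of 36.9, 41.5 and 36.4 in the same order as above. Flt4, the receptor VEGFR3 and a marker of LEC, was 4.96-fold (adjusted p = 2.43e-09) higher in D-LEC than LN-LEC. Adamts14 was low and called higher in LN-LEC (20.4) than D-LEC (4.71), by 4.47-fold (adjusted p = 0.00692), and Adamts2 was not called.

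The related Adamts7 and Adamts12, which cut cartilage oligomeric matrix protein, moved alike. Adamts7 had 118, 109, 130.03 and 140.2 for LN-LEC, 305, 381 and 335 for LN-BEC and 31.5, 19.04 and 32.2 for D-LEC. The 3 populations did not overlap, with LN-BEC 2.696-fold (SE 0.19, adjusted p = 2.69e-05) over LN-LEC and LN-LEC 4.57-fold (SE 0.22, adjusted p = 1.93e-06) over D-LEC. Adamts12 had 53.1, 29.2, 36.2 and 58.5 for LN-LEC, 159, 101 and 105 for LN-BEC and 20.2, 11.02 and 13.2 for D-LEC. LN-BEC exceeded LN-LEC by 2.698-fold (SE 0.31, adjusted p = 0.00205) and LN-LEC exceeded D-LEC by 3.08-fold (SE 0.36, adjusted p = 0.00202). Adamts18 had 6.48, 6.35, 10.2 and 16.97 for LN-LEC, 169.8, 118 and 106 for LN-BEC and 0, 2.004 and 0.826 for D-LEC, the steepest of the ADAMTS. LN-BEC exceeded LN-LEC by 12.2-fold (SE 0.41, adjusted p = 7.11e-06). The LN-BEC mean was 132 times the D-LEC level, which rests on 3 counts (counting interval 45 to 638, adjusted p of the edgeR test = 5.11e-07). Adamts10, which acts on fibrillin microfibrils, was called higher in D-LEC than LN-LEC, by 1.404-fold (adjusted p = 0.00322), and Adamts6 in no comparison. Adamts13, the protease of von Willebrand factor, stayed at 6.05 normalized counts or below in every library. Adamts16, Adamts17 and Adamts19 were not called.

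A list of 33 genes that activate, inhibit, carry or dock these proteases was tested beside them. Of these, 11 were higher in LN-LEC than D-LEC and 13 lower, where the shares of all genes were 24.0% and 21.7%. Against LN-BEC, 14 were higher in LN-LEC and 8 lower (19.8% and 18.4% of all genes), and 12 were higher in D-LEC and 11 lower (22.4% and 25.6%). Of the 8 inhibitors other than TIMP, 5 were higher and 3 lower in LN-LEC than LN-BEC, 4 were higher and 2 lower in LN-LEC than D-LEC, and 2 were higher and 3 lower in D-LEC than LN-BEC, against those same shares. Reck, a membrane-anchored inhibitor of MMP, had 718, 717, 829 and 797 for LN-LEC, 179, 119 and 163 for LN-BEC and 338, 259.5 and 327 for D-LEC, with LN-LEC above LN-BEC by 5.04-fold (SE 0.15, adjusted p = 3.17e-08) and above D-LEC by 2.52-fold (SE 0.14, adjusted p = 3.98e-06). A2m, a protease trap, had 495, 477, 422 and 419 for LN-LEC, 21.01, 11.2 and 24.2 for LN-BEC and 0, 5.01 and 3.31 for D-LEC, which is 148-fold (SE 0.40, adjusted p = 5.65e-09) more in LN-LEC than D-LEC. The testicans Spock3 and Spock1 were also highest in LN-LEC, with means of 492 against 8.04 in LN-BEC and 10.8 in D-LEC for Spock3. Elsewhere the order differed: Tfpi2, a Kunitz inhibitor, was highest in D-LEC (6.21-fold (adjusted p = 9.55e-09) over LN-LEC) and Papln in LN-BEC (13.1-fold (adjusted p = 2.25e-06) over LN-LEC).

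Activators split by population. The proprotein convertases remove the inhibitory prodomain of membrane-type MMP, ADAM and ADAMTS. Furin was higher in LN-BEC than LN-LEC, by 1.38-fold (adjusted p = 0.00155). Pcsk5 had 740.1, 659, 720.3 and 724 for LN-LEC, 488, 355 and 527 for LN-BEC and 35.3, 39.1 and 52.9 for D-LEC, with LN-LEC 16.7-fold (SE 0.18, adjusted p = 6.87e-10) above D-LEC. Pcsk6 was the reverse, with 325, 371, 276 and 563 for LN-LEC, 98.04, 112 and 170.2 for LN-BEC and 19286, 13091 and 14900.00 for D-LEC and D-LEC 40.1-fold (SE 0.29, adjusted p = 3.31e-07) above LN-LEC. Urokinase (Plau), which starts a cascade that activates MMP, and its receptor (Plaur) were higher in D-LEC than LN-LEC, by 16.03-fold (adjusted p = 3.53e-09) and 4.22-fold (adjusted p = 4.28e-07).

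Adam10 and Adam17 need tetraspanins and iRhoms to leave the endoplasmic reticulum. Tspan15, a partner of ADAM10, had 3930.2, 3995, 4378 and 3469.5 for LN-LEC, 4362, 4486 and 4705 for LN-BEC and 735, 573 and 599 for D-LEC, and D-LEC were 6.305-fold (SE 0.11, adjusted p = 3.23e-10) below LN-LEC. Tspan14 and Tspan5 ran the other way, 1.56-fold (adjusted p = 0.000568) and 1.39-fold (adjusted p = 0.00265) higher in D-LEC than LN-LEC. Tspan33 was highest in LN-LEC, with 434, 562, 393 and 439 for LN-LEC, 5.25, 6.92 and 47.3 for LN-BEC and 52.98, 39.1 and 24.8 for D-LEC, and LN-LEC 24.3-fold (SE 0.64, adjusted p = 0.000313) above LN-BEC. Of the iRhoms, Rhbdf2 was higher in LN-LEC than D-LEC by 2.52-fold (adjusted p = 2.04e-05) and Rhbdf1 was not called in that comparison. Cd44, which docks MMP9 at the surface, was higher in LN-LEC than D-LEC by 21.6-fold (adjusted p = 1.17e-05). It was also higher in LN-BEC than D-LEC by 14.8-fold (adjusted p = 2.64e-05). The LN populations were not called apart, with Cd44 means of 2672 in LN-LEC and 1856 in LN-BEC (adjusted p = 0.197).

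ADAMTS-like proteins share the ancillary domains of ADAMTS and lack the protease. Of the 5, 4 were called higher in D-LEC than LN-LEC, against 21.7% of all genes, and 1 lower, against 24.0%. Adamtsl1 had 132, 149, 113 and 175 for LN-LEC, 54.3, 29.4 and 96.6 for LN-BEC and 3984, 4645 and 4527 for D-LEC, and D-LEC exceeded LN-LEC by 30.1-fold (SE 0.28, adjusted p = 2.75e-07). Adamtsl4 did so by 13.1-fold (SE 0.18, adjusted p = 1.41e-09). Adamtsl2 was the exception, higher in LN-LEC by 3.44-fold (adjusted p = 0.00604).

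Of the 78 genes, 15 were not tested. Among these, 9 had no count in any library: Adam6a, Adam18, Adam24, Adam26a, Adam26b, Adam29, Adam34, Mmp1a and Mmp1b. The other 6 were Adam1b, Adam2, Adam6b, Adam25, Mmp10 and Mmp24. Fragments that map to more than 1 place were not counted. Among the genes without counts, the share of 100-base windows that also occur in another gene was 0 for Adam18, Adam24 and Adam29 and at most 15.7% (Adam26b), so most of each sequence could be counted. Of the windows of Adam25, 16.2% occur in another gene, Adam39 among them, and 35.3% of those of Adam1b occur in Adam1a. Mmp24 shares 14.8% of its exon bases with BC029722 on the opposite strand.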

How the data were processed

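Reads were trimmed with Fastx-trimmer, aligned to mm9 with STAR and counted per gene symbol with featureCounts version 1.4.4, per the file headers, the submitters' processing notes and the study's methods. The STAR version is not given in the sources used here. The authors deposited raw counts of fragments in which both ends mapped, without regard to strand and without fragments mapping to several places, and a column of exon bases per gene (other). The Ovation RNA-Seq System V2 amplified the RNA, and its reads carry no molecular identifiers. For the analysis, 3786 unnamed symbols (predicted genes and clones) were left out, and a gene was kept at a mean normalized count of at least 1 in any population. Counts were fitted with edgeR 4.0.16 in R 4.3.3 (TMM, robust quasi-likelihood, 1 mean per population, all 10 libraries), with DESeq2 1.42.0 as an alternative and for size factors. A called gene has an adjusted p under 0.05 by the Benjamini-Hochberg method. Other settings were tried one at a time: other size factors, DESeq2's Wald test, no filter, a filter at 1 FPKM, only the populations compared, and each library left out. Leaving out LN-BEC replicate 3 with LN-LEC replicate 4, and repeating these settings for the partner genes, were added after seeing the data. The methods were tested on simulated data. Libraries held 22429940 to 48906070 counts, where 3 counts are the floor used for a count of 0, and intervals and floors cover counting error only. No batch, sorting day or pairing is labelled, so none was modelled. Active sites were found with Python 3.11.15 in coding transcripts of the mm9 gene models, and promoters come from RefSeq (GRCm38.p6). Every gene of the families may be named, and values per library are given for the 4 TIMP and for proteases called at 2-fold or more with a mean of at least 100. The genes, the partner list and the marker lists were chosen with earlier results of these data known. One marker list is not reported here.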

Additional observations from a re-analysis of the deposited data

Results flagged for a closer look

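In LN-LEC, the population with 4 libraries, 27 genes were examined for a library far from the others, and 2 were found where chance gives about 1 in 20. Adam15 was 1502 in LN-LEC replicate 4 and 1686 to 1714 in the other LN-LEC libraries. Adamts9 was 6510 in LN-LEC replicate 3 and 8446 to 8715 in the others. Both values still lay on the same side of the LN-BEC and D-LEC libraries as the rest of LN-LEC.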

How the results depend on the processing

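With the filter at 1 FPKM, which left 32 of the 63 genes, 13 were higher in LN-LEC than D-LEC (21 without it), 7 in LN-BEC than LN-LEC (11) and 11 in LN-BEC than D-LEC (21). These counts are smaller partly because fewer genes were tested, 11259 in all against 15361. The shares of all genes called under that filter were not taken. Over all settings and comparisons, 93 of 96 counts stayed within 1.5 times their value, and no call changed direction under any setting. Leaving out 1 library at a time gave 20 to 25, 14 to 17, 14 to 16, 10 to 13, 11 to 14 and 17 to 21 genes for LN-LEC over D-LEC, D-LEC over LN-LEC, LN-LEC over LN-BEC, LN-BEC over LN-LEC, D-LEC over LN-BEC and LN-BEC over D-LEC. Calls of single genes were followed only in settings that tested the gene, so genes removed by the 1 FPKM filter were not counted as losses. Of the 27 genes with full values, 0 lost a call in this sense for LN-LEC minus D-LEC, 1 for LN-LEC minus LN-BEC (Adam9, 0.86 with adjusted p = 0.063 without LN-BEC replicate 3 and LN-LEC replicate 4) and 5 for D-LEC minus LN-BEC (Mmp9, Mmp13, Mmp25, Adam9, Adamts15) under at least 1 setting. Calls of Adam8, Adam10, Adam28, Adamts8, Adamts14, Adamts20, Mmp11, Mmp19 and Mmp27 were also lost under at least 1 setting. Among the 27 genes, calls were gained under at least 1 setting by Timp4 for LN-LEC minus LN-BEC. Adam22, Adam33 and Adamts1 gained calls for D-LEC minus LN-BEC. The causes were not tested. For the summed levels, leaving out 1 library cannot shift a mean by as much as the SD between libraries. That check therefore could not show whether the sums depend on a single library. The median of all genes lay within 0.05 of 0 on the log2 scale under either scaling. No paired analysis was possible because the labels carry no replicate numbers shared between populations. Depth limits the genes with few counts, among them Mmp8, Mmp27, Adam5, Adam28 and Adamts18 in D-LEC.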
